A study of Ovis aries with 36 samples.

Results

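A group of 8 neighbouring loci on chromosome 7 was followed across 9 muscles of the lamb. They are all the loci whose span lies wholly between 46.24 and 46.3 Mb of the ovine genome build Oar_v3.1, 8 of the 31136 distinct loci in the count files. None of the 8 carries an Ensembl gene, so each is a transcribed unit that was assembled from the reads and is known only by its XLOC number. Of these, XLOC_026971, XLOC_026972 and XLOC_026683 drew attention to the region because they were among the loci that differed most between Semimembranosus (SM) and Supraspinatus (SS). The SM and SS values therefore chose the region, and every value of these 2 muscles is given here as a description, with no test. The tests use the other 7 muscles, which did not enter that choice.

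RNA-Seq counts were available for 36 samples, 1 from each of 9 muscles in each of 4 male, unrelated Poll Dorset cross-bred lambs aged 14 months. The muscles of the thigh and rump were SM, Adductor (AD), Semitendinosus (ST), Rectus femoris (RF), Gluteus medius (GM) and the cranial part of Gluteobiceps (GB). Psoas major (PM) and Longissimus lumborum (LL) are muscles of the loin, and SS is a muscle of the shoulder. All were whole muscle tissue taken from the middle of the superficial belly shortly after slaughter, with no treatment. Samples with the same number in their titles were taken to come from the same animal, and muscles were compared within animals on that reading. In bulk tissue, fewer cells of a type and less RNA per cell cannot be told apart.

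As background, the study assigned loci of this region to RORA by comparison with the human genome, an assignment that was not checked here. RORA encodes the RAR-related orphan receptor alpha, a nuclear receptor that binds ROR response elements as a monomer and activates transcription. It takes part in the circadian clock, where it drives ARNTL, and in skeletal muscle it is known for the control of lipid metabolism genes. Unannotated loci that lie close together without a gene model can be pieces of 1 long transcript, of its introns, or separate transcripts. The count files do not distinguish these.

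The samples held between 3699148 and 6427422 counts, of which 4 loci took 65.7 to 78.3%. Loci without an Ensembl gene took between 8.38 and 14.9% of the counts outside those 4 loci. At this depth, 3 counts correspond to between 0.365 and 1.02 CPM (counts per 1000000 reads counted, scaled by the trimmed mean of M values), which is the floor below which a level was not read. The tissue was checked with 10 genes of slow muscle fibres. Of these, 7 could be paired with a single locus, and the study had picked those 7 from these same samples. TNNT1, the slow skeletal troponin T, was present in all 36 samples (from 16.7 to 281 CPM), with the highest mean in PM (255 CPM) and the lowest in ST (23.1 CPM).

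The 8 loci formed a nearly continuous block. From left to right they were XLOC_026969 (46240156 to 46242731), XLOC_026970 (46242796 to 46243988), XLOC_026971 (46246545 to 46258218), XLOC_026972 (46258368 to 46267107), XLOC_026973 (46267577 to 46274479), XLOC_026974 (46274540 to 46275503), XLOC_026683 (46275748 to 46290277) and XLOC_026128 (46290854 to 46298514). Their lengths ranged from 964 to 14530 bases and the gaps between them from 60 to 2556 bases. Together they covered 92.9% of the 58359 bases from the first to the last. They took 12962 counts over the 36 samples, and XLOC_026683 (27.5%), XLOC_026971 (22.7%), XLOC_026972 (15.4%) and XLOC_026973 (15.1%) held most of them. XLOC_026970 and XLOC_026974, the shortest loci, took 259 and 211 counts in all, and each had no count in at least 1 sample.

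Per length, the loci were much alike. The mean level was lowest in XLOC_026969 (0.909 CPM per kb) and highest in XLOC_026973 (1.33 CPM per kb), with 1.19 in XLOC_026971, 1.08 in XLOC_026972 and 1.15 in XLOC_026683. The differences in CPM between the loci thus mostly followed their lengths. The locus next to the members on each side was within the range of their densities. XLOC_026968, which ends just left of it, had 1.25 CPM per kb, and XLOC_026975, which crosses its right edge, had 0.998 CPM per kb.

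The block is part of a longer run. Within 1 Mb on either side lay 52 loci, members included, of which 43 had no Ensembl gene, and these followed one another over 424 kb, from 45931395 to 46355812. The run ended just before XLOC_026129, which carries ENSOARG00000020816 and shares its span (46356376 to 46741209) with 2 Ensembl loci of 25 and 19 counts in all. On the left, the nearest annotated locus was ENSOARG00000023711, with 0 counts, and the nearest with counts was ENSOARG00000020813 (45080628 to 45261608). Density was 1.6 ± 0.53 CPM per kb (SD, n = 36) in the 22 loci left of the members, 1.13 ± 0.343 in the 8 members and 1.03 ± 0.295 in the 11 loci to their right. The left side was denser than the right side in 36 of 36 samples, by a ratio of 1.53 ± 0.169 (SD). The plot of read density shows this fall from left to right, with SS above SM at every locus. A pair of unannotated loci that share a single span of 60449 bases were left out of these densities, having 41 and 37 counts.

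**Figure D1:**
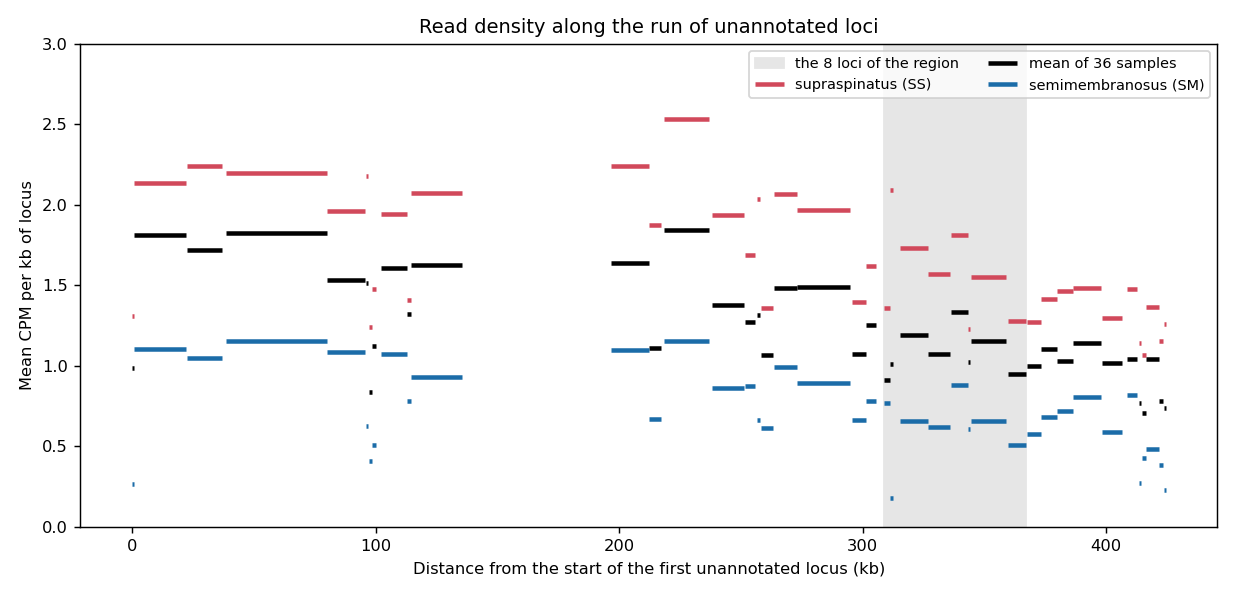
Mean level per kb of each unannotated locus (y axis, CPM per kb) against its distance in kb from the start of the first one (x axis). Each bar spans 1 locus, for the mean of 36 samples (black), SS (red, n = 4) and SM (blue, n = 4), and the grey band marks the 8 members, whose overall density was 1.13 CPM per kb against 1.6 on their left.

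Summed over the 8 loci, the level was highest in SS and lowest in SM. In SS the 4 animals had 71.4, 95.9, 74.7 and 102 CPM, and in SM they had 25.9, 58.2, 25.1 and 32.4 CPM (animals 1 to 4 in order). No SS sample was as low as any SM sample, and animal 2 stood well above the other 3 animals in SM. Within animals, SS exceeded SM by 1.34 ± 0.42 log2 CPM (SD, n = 4), a 2.54-fold difference with the same direction in 4 of 4 animals.

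The other 7 muscles lay between these. RF had 53, 90.1, 77.4 and 75.8 CPM, GM had 55.2, 62.9, 68.3 and 89.5 CPM, and GB had 56.3, 74.2, 55.7 and 72 CPM. These 3 muscles overlapped with one another and with SS. LL had 59.1, 78, 35.2 and 64.7 CPM, ST had 40.9, 64.5, 60.4 and 61.2 CPM, and AD had 49.1, 67.8, 46.3 and 56.1 CPM. PM, the tenderloin, had 39.5, 70.1, 38.2 and 53.5 CPM. The order of the means was SS (86 ± 15.2 CPM), RF (74.1 ± 15.4), GM (68.9 ± 14.7), GB (64.5 ± 9.9), LL (59.3 ± 17.9), ST (56.7 ± 10.7), AD (54.8 ± 9.6), PM (50.3 ± 14.9) and SM (35.4 ± 15.5, all SD, n = 4). Every muscle's range overlapped that of the next in this order. Between neighbours, only the step from PM to SM had the same direction in 4 of 4 animals (0.55 ± 0.19 log2 CPM).

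**Figure D2:**
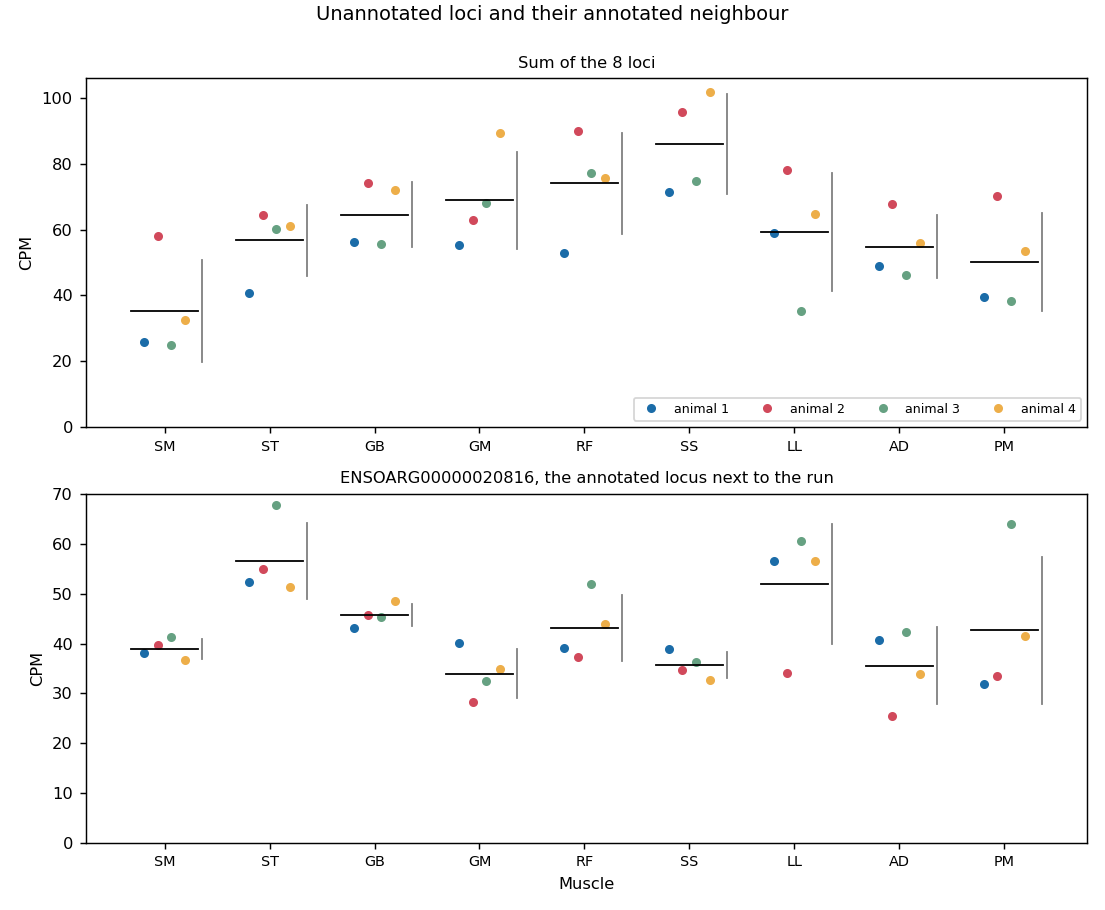
Level in CPM (y axis) by muscle (x axis) of the 8 loci summed (top) and of ENSOARG00000020816, the annotated locus next to the run (bottom), with 1 point per animal (n = 4), the mean as a black line and ± 1 SD as a grey line. The sum ran from 35.4 CPM in SM to 86 CPM in SS, while the annotated locus was highest in ST, at 56.7 CPM.

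Each of the 3 loci that drew attention to the region had the same extremes. XLOC_026971 had 18.5, 20.2, 18.4 and 23.7 CPM in SS and 6.81, 11.7, 4.53 and 7.59 CPM in SM. SS was also above every sample of AD, PM, ST and GB, whose highest values were 16.4, 15.5, 17 and 16.4 CPM. Within animals, SS exceeded SM by 1.43 ± 0.5 log2 CPM (SD, n = 4).

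XLOC_026972 had 10.1, 19.6, 10.8 and 14.4 CPM in SS and 5.45, 7.64, 4.27 and 4.27 CPM in SM. The SS samples spread widely, with animal 2 highest, but did not overlap with SM. The difference within animals was 1.28 ± 0.34 log2 CPM.

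XLOC_026683, the longest locus, had 18.8, 24.9, 19.7 and 27 CPM in SS and 5.11, 16.4, 9.06 and 7.59 CPM in SM. Here too animal 2 had the highest SM value, and it came near the lowest SS value. The difference within animals was 1.32 ± 0.59 log2 CPM.

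In the other 5 loci SS also had the highest mean, but SM did not have the lowest in each. In XLOC_026973, SS ranged from 10.7 to 15.2 CPM and SM from 3.74 to 9.48 CPM. In XLOC_026128, SS ranged from 7.44 to 11.9 CPM and SM from 1.07 to 7.64 CPM, so that 1 SM sample lay just above the lowest SS sample. XLOC_026969 ranged from 2.29 to 5.22 CPM in SS and from 0.533 to 3.68 CPM in SM, with overlap. Its lowest SM value, in animal 3, was 2 counts and under the floor. The lowest mean of this locus was that of AD (1.85 CPM, against 1.98 CPM in SM). XLOC_026970 had between 5 and 25 counts in the SS samples and between 0 and 3 counts in SM, where 3 of 4 samples were under the floor. XLOC_026974 had between 4 and 11 counts in SS and between 0 and 8 in SM, too few to separate the 2 muscles. In the 6 loci other than these last 2, SS exceeded SM in 4 of 4 animals, counting animal 3 in XLOC_026969, where SM was under the floor. In XLOC_026970 and XLOC_026974, 3 of 4 SM samples were under 3 counts, and no direction was read for single animals.

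The intermediate muscles followed in an order that varied with the locus. XLOC_026971 averaged 16.8 ± 3 CPM in GM, 16.5 ± 2.8 in RF, 14.8 ± 1.78 in GB, 13.6 ± 3.08 in ST, 13 ± 4.75 in LL, 12.8 ± 2.41 in AD and 9.99 ± 3.75 in PM (SD, n = 4). XLOC_026972 averaged 12.2 ± 1.71 CPM in RF and 10.7 ± 2.55 in GM, and between 7.45 ± 1.09 in ST and 9.87 ± 2.81 in GB in the other 5 of these muscles. XLOC_026683 averaged 20.7 ± 4.43 CPM in RF, 18.7 ± 5.13 in GM and 18.5 ± 2.27 in GB, and fewer in AD (16.2 ± 4.54), ST (15.8 ± 2.39), LL (14.9 ± 4.67) and PM (14 ± 3.54). In all 3 loci, RF, GM and GB held the places after SS, and their ranges overlapped with those of the muscles below them, while ST held place 5 of 9 in XLOC_026971 and place 8 in XLOC_026972.

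In XLOC_026973, the 7 muscles ran from 7.6 ± 1.13 CPM in AD to 10.7 ± 3.35 in RF, with single samples from 4.33 CPM in PM of animal 3 to 13.7 CPM in RF of animal 2. In XLOC_026128 they ran from 6.22 ± 0.917 CPM in AD to 8.76 ± 2.82 in RF. XLOC_026969 had its highest mean of the 7 in LL (2.65 ± 0.943 CPM) and its lowest in AD (1.85 ± 0.413 CPM). XLOC_026970 ran from 0.703 ± 0.246 CPM in PM to 1.68 ± 0.252 in RF, where its 4 samples had 8 to 14 counts each. XLOC_026974 averaged about 1 CPM in each of these muscles, from 0.898 ± 0.485 in RF to 1.12 ± 0.334 in LL, and its means differed by less than their SD.

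**Figure D3:**
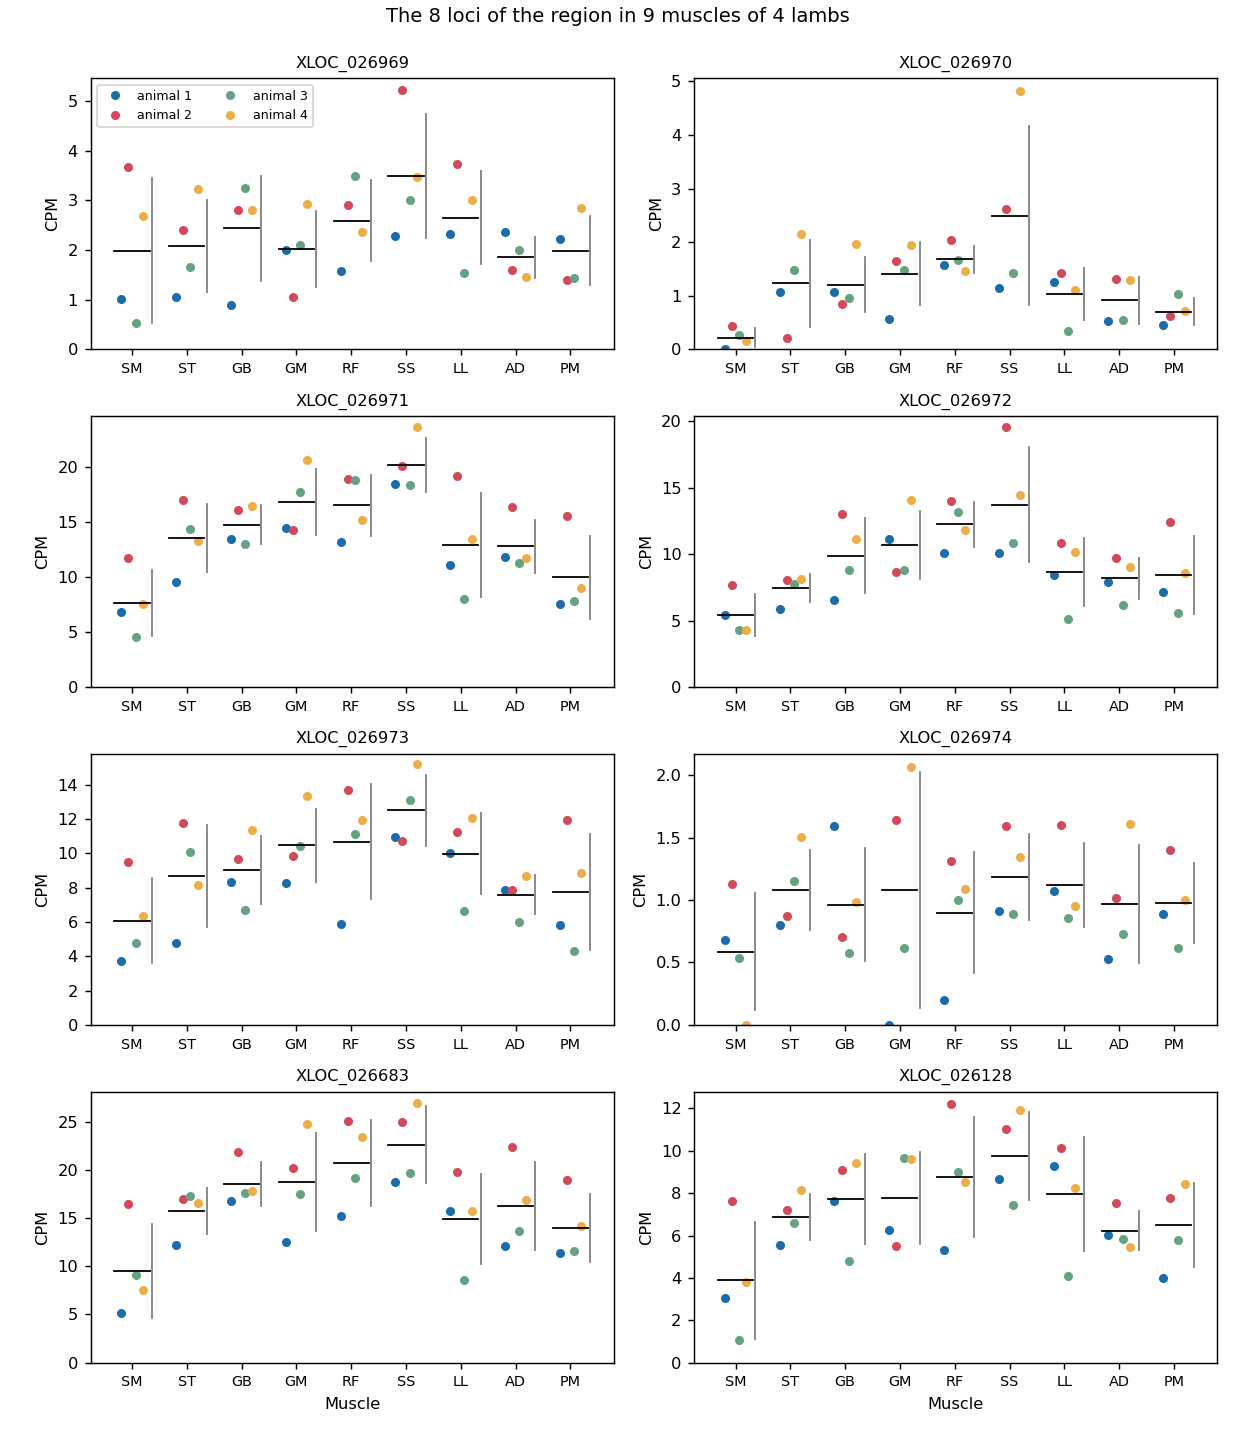
Level of each of the 8 loci (y axis, CPM) in 9 muscles (x axis), with 1 point per animal (n = 4 per muscle), the mean as a black line and ± 1 SD as a grey line, drawn no lower than 0. SS has the highest mean in all 8 panels, and in XLOC_026971 its 4 samples lie between 18.4 and 23.7 CPM.

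Against the mean of the other 8 muscles of the same animal, SS was higher in 4 of 4 animals for the 6 loci other than XLOC_026970 and XLOC_026974. The difference was 0.67 ± 0.24 log2 CPM in XLOC_026971, 0.63 ± 0.21 in XLOC_026972, 0.54 ± 0.17 in XLOC_026683 and 0.61 ± 0.12 for the sum of the 8 (SD, n = 4), the last being 1.53-fold. Without SM in the mean, the difference of the sum was 0.51. SM was lower than the mean of the other 8 muscles by 0.93 ± 0.39 log2 CPM in XLOC_026971, by 0.81 ± 0.32 in XLOC_026972 and by 0.94 ± 0.49 in XLOC_026683, in 4 of 4 animals each. It was also lower in 4 of 4 animals in XLOC_026973 and XLOC_026128, but in 3 of 4 in XLOC_026969, where animal 2 was 0.56 higher. Of these 3, animal 3 was under the floor in SM. XLOC_026970 and XLOC_026974 had too few counts in SM for a direction in single animals. The sum was lower in SM by 0.9 ± 0.36.

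Part of the same direction was present in unannotated loci as a class. Over the 7 members that passed the filter on low counts, the median of SM minus the mean of the other 8 muscles was -0.93 log2 CPM, against -0.76 in 31 further loci of the run, -0.36 in all 2978 unannotated loci tested and -0.02 in all 12095 loci tested. For SS minus the mean of the other 8 muscles the medians were 0.63, 0.48, 0.12 and 0.01 in the same order. Of the counts outside the 4 most abundant loci, unannotated loci took 13 ± 2.84% in SS and 11.8 ± 1.18% in SM. This share was 11.8 ± 0.388% in GB and lowest in RF (10.4 ± 1.4%), which held place 2 of 9 in the members' sum. SS of animal 1 had both the lowest share (8.79%) and the lowest members' sum (71.4 CPM) in that muscle. SM also had the largest share of counts in the 4 most abundant loci (74.8 ± 3.59%), and its samples of animals 1 and 3, with 76 and 94 counts over the 8 loci, were the thinnest of all. The part of these shares in the difference was not tested.

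**Figure D4:**
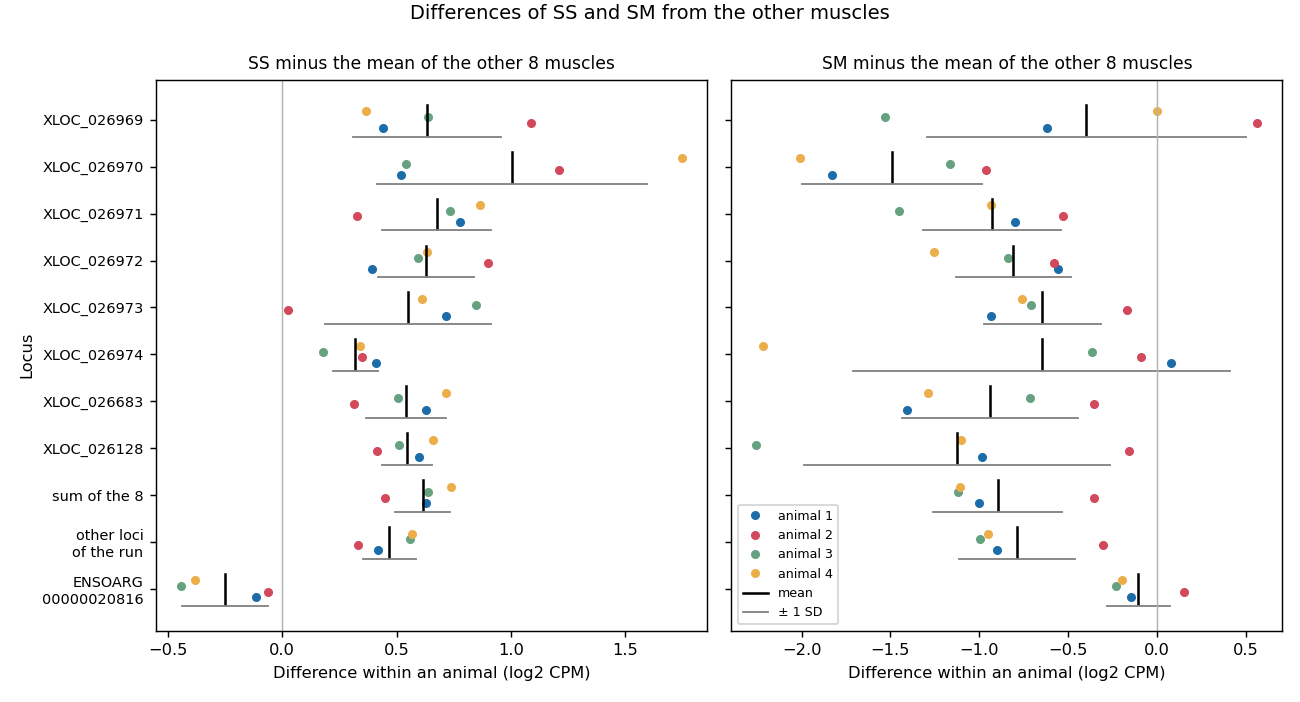
Difference in log2 CPM (x axis) of SS (left) and of SM (right) from the mean of the other 8 muscles of the same animal, by locus (y axis), with 1 point per animal, the mean as a black line and ± 1 SD as a grey line (n = 4). The sum of the 8 loci was 0.61 above the other muscles in SS and the annotated neighbour ENSOARG00000020816 was 0.25 below them.

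The next question was whether the loci also differ among the 7 muscles that played no part in their choice. Of the 12095 loci tested jointly across these muscles, with animal as a block, 3.84% were called at a false discovery rate (FDR) of 0.01. None of the 7 members tested was called by edgeR's quasi-likelihood test, nor by its likelihood ratio test or DESeq2. At an unadjusted p under 0.05 the members numbered 3 of 7, beside 25.4% of all loci. XLOC_026971 came nearest (FDR = 0.0567), followed by XLOC_026972 (FDR = 0.0976) and XLOC_026683 (FDR = 0.127), all by the quasi-likelihood test. The median unadjusted p was 0.144 for the members and 0.214 for all loci. Without animal 2, XLOC_026971 was called (FDR = 0.00813), and in the other alternatives its FDR lay as high as 0.372. XLOC_026974 did not pass the filter on low counts.

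The members' direction was then read in each of the 7 muscles. In RF against the mean of the other 6 muscles, the log2 fold change (log2FC) was above 0 in 7 of 7 members, with a median of 0.32, where 50.7% of all loci were above 0. Among the 5 members with most counts, the largest was in XLOC_026972 (log2FC 0.49, FDR = 0.0994), which had 10.1, 14, 13.1 and 11.8 CPM in RF and exceeded the mean of the other 6 in 4 of 4 animals, although GM was higher than RF in animals 1 and 4. In PM the log2FC was below 0 in 7 of 7 members, with a median of -0.27, where 50.4% of all loci were above 0. Of the same members, XLOC_026971 was the furthest (log2FC -0.54, FDR = 0.0785), with 7.58, 15.5, 7.84 and 8.99 CPM in PM, lower than the mean of the other 6 in 4 of 4 animals, although in animal 2 GM was lower still (14.3 CPM). The sparse XLOC_026970 had a log2FC of 0.67 in RF (FDR = 0.386) and of -0.82 in PM (FDR = 0.416). In AD the log2FC was also below 0 in 7 of 7 members, from -0.33 to -0.07 with a median of -0.29, where 49.9% of all loci and 41.3% of unannotated loci were above 0. The members lie side by side and share libraries, so that 7 of 7 is not 7 independent observations. Nor were these directions particular to the members. Of the 7 muscles, the other 35 unannotated loci of the run, summed, had their highest mean in RF (512 ± 125 CPM). Their lowest was in PM (346 ± 122 CPM) and the next lowest in AD (371 ± 102 CPM, all SD, n = 4).

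No member was called in any single muscle by the quasi-likelihood test, and the likelihood ratio test and DESeq2 called none either. The share of all loci called at an FDR of 0.01 was 2.82% in ST, 0.141% in GB, 0.256% in GM, 0.347% in RF, 0.620% in LL, 0.0248% in AD and 0.471% in PM. At an unadjusted p under 0.05 there were 4 of 7 members in RF, beside 11.4% of all loci, and 3 of 7 in PM, beside 10.7%. ST and GM had 1 of 7 each, beside 19.8% and 13.9%. GB, LL and AD had 0 of 7, beside 14.6%, 13.5% and 12.3%. 

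The order of the muscles was set beside that of the slow-fibre genes. All 7 slow-fibre genes that could be paired were called in the joint test, but the study had picked them in comparisons that include ST, so this call is not independent evidence. Of the 7, TNNT1, MYL3, ATP2A2, TNNC1 and TNNI1 had their highest mean in PM, while MYOZ2 (53.9 CPM in SS and 33.3 CPM in PM) and CASQ2 (10 CPM and 7.09 CPM) had theirs in SS, as the 8 loci did. All 7 had their lowest mean in ST, which held place 6 of 9 in the sum of the loci, and PM held place 8.

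The levels were also compared between animals. The sequencing lane of each sample is not given, so animal and lane cannot be told apart. In every muscle the sample of animal 1 had the fewest counts over all loci. Over the 7 muscles, the sum of the 8 loci was 50.4 ± 7.67 CPM in animal 1, 72.5 ± 9.37 in animal 2, 54.5 ± 15.6 in animal 3 and 67.5 ± 12.5 in animal 4 (SD over muscles, n = 7). Animal 2 had the highest value in ST, GB, RF, LL, AD and PM, and animal 4 in GM. In a joint test of the 4 animals, 11.9% of all loci were called at an FDR of 0.01 and 33.9% had an unadjusted p under 0.05. Among the members these were 1 of 7 and 4 of 7, the first near the share over all loci.

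The member called between animals was XLOC_026683 (FDR = 0.00231 by the quasi-likelihood test). It averaged 13.7 ± 2.15 CPM in animal 1, 20.7 ± 2.61 in animal 2, 15 ± 3.89 in animal 3 and 18.5 ± 4.03 in animal 4 (SD, n = 7). Its ranges did not overlap between animals 1 and 2, with 16.8 CPM as the highest value of animal 1 and 17 CPM as the lowest of animal 2. XLOC_026971 (FDR = 0.0198), XLOC_026972 (FDR = 0.0208) and XLOC_026973 (FDR = 0.0173) did not reach the threshold. The call of XLOC_026683 was lost without animal 1 (FDR = 0.0233) or animal 2 (FDR = 0.0636). The share of unannotated loci in the counts outside the 4 most abundant loci was lowest in animal 1 (10.5 ± 1.3%). It was 11.7 ± 1.31% in animal 2, 11.2 ± 0.432% in animal 3 and 12 ± 0.671% in animal 4. Its part in the difference was not tested. Of the other unannotated loci of the run, 14 of 31 tested were called between animals, and 19.8% of all unannotated loci tested.

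Muscle and animal shared the variation unequally among the loci. In the sum of the 8 over all 36 samples, 57.4% of the sum of squares of log2 CPM lay between muscles, 25.9% between animals and 16.7% in the rest. In XLOC_026971 the share between muscles was 63.7%. In XLOC_026969 and XLOC_026974 it was 21.7% and 15.7%, with 59.9% and 65.9% in the rest, and in XLOC_026970, which also had few counts, it was 58.2%. SM and SS enter these shares, which are a description.

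The proportions of the 8 loci to one another were compared between muscles. The share of XLOC_026683 in their joint counts stayed between 25.2 and 30.2% over the 9 muscles, that of XLOC_026971 between 19.8 and 24.2% and that of XLOC_026973 between 13.6 and 17.3%. The widest relative range was that of XLOC_026970, from 0.636% in SM (5 of 786 counts) to 2.91% in SS (56 of 1924 counts). In SM, 3 of its 4 samples were under the floor, so this range rests on few counts.

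ENSOARG00000020816, the annotated locus on the right, did not share the pattern. It had 38.9, 34.8, 36.3 and 32.7 CPM in SS and 38.1, 39.8, 41.3 and 36.7 CPM in SM. Its difference of SS from SM was -0.13 ± 0.1 log2 CPM (SD, n = 4), where the sum of the 8 loci gave 1.34. It was highest in ST (56.7 ± 7.69 CPM) and LL (52 ± 12.1 CPM), which held places 6 and 5 of 9 in the sum of the members. The ratio of the members' counts to its own went from 0.908 ± 0.388 in SM to 2.44 ± 0.595 in SS. Among the 7 muscles its FDR in the joint test was 0.0117.

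The other unannotated loci of the run did share it. Summed, the 35 had 555 ± 145 CPM in SS and 268 ± 124 CPM in SM, and SS exceeded SM by 1.12 ± 0.38 log2 CPM in 4 of 4 animals. None of the 31 tested was called across the 7 muscles, and 12 of 31 had an unadjusted p under 0.05. The members made up between 10.6 and 17.1% of the counts of the whole run in any sample. Density left of the members relative to their own was 1.58 ± 0.065 in ST and 1.29 ± 0.15 in SS (SD, n = 4), with GM ranging from 0.961 to 1.54.

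Outside the 1 Mb on either side, the loci with the pattern most like that of the members were sought among 4944 loci with a mean of at least 5 CPM. The measure was Pearson's r over the 36 samples of log2 CPM centred on each animal's mean, against the members past the filter summed. These points share animals and libraries, and SM and SS contribute to them. The share of loci without an Ensembl gene among the 4944 was not counted. As a class, the 2978 unannotated loci tested had a median SS minus SM of 0.42 log2 CPM, against 0.003 in all 12095 loci tested. The 5 loci with the highest r had no Ensembl gene. They were XLOC_022994 (r = 0.86) and XLOC_022518 (r = 0.81), which share a span on chromosome 4 from 94636661 to 94849039, XLOC_012463 on chromosome 19 (r = 0.83), XLOC_014828 on chromosome 2 from 220339844 to 220346024 (r = 0.82) and XLOC_018885 on chromosome 25 (r = 0.81). XLOC_014828 had 18.7 CPM in SS and 5.93 CPM in SM, with 17.1 in GM and 16.3 in RF. The study lists a locus at this span among those that differed most between SM and SS. The same comparison drew attention to the members, so the likeness of XLOC_014828 is not an independent result. The median r of the 4944 loci was -0.07. ENSOARG00000020816 had an r of -0.06, ENSOARG00000020813 one of 0.03, and the 21 other loci of the run with at least 5 CPM had r from 0.64 to 0.93.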

How the data were processed

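Total RNA from 36 muscle samples was sequenced as 100-base paired reads. Per the labels and the study's methods, TopHat2 2.0.13 aligned the reads to Oar_v3.1, and the authors assembled transcripts with Cufflinks 2.2.1, merged them with the Ensembl annotation and counted reads per locus with HTSeq. Whether reads were counted by strand, and which RNA the libraries selected, is not given in the sources used here. The deposited files hold these raw counts for 31530 entries (31136 distinct loci). 

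Counts were scaled by TMM in edgeR 4.0.16 (R 4.3.3). Loci passing filterByExpr were tested by quasi-likelihood F-tests, with muscle and animal as factors, on the 28 samples outside SM and SS, with Benjamini-Hochberg adjustment over 12095 loci. Log2 CPM used a prior count of 2. DESeq2 1.42.0, the likelihood ratio test, RLE factors, other filters, an FDR of 0.05, no block and each animal left out were alternatives. The scripts were first tested on simulated data. Same-numbered samples were taken to come from the same animal. Their deviations from the muscle means had a mean r of 0.29 over 84 pairs (lowest -0.007). The mean r was -0.096 over 252 pairs that differed in number and muscle. Replicates of a muscle differed beyond counting noise (chi-square per degree of freedom of at least 5.12). 

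The members and gene lists were chosen with earlier results of these data known. Named loci are all members, the annotated loci beside them, the loci across the region's edges and the 5 most alike. The files give no gene symbols, so 0 genes of the clock, co-regulator, fast-fibre and cell type marker lists could be matched, and slow-fibre genes were paired by the study's coordinates. The study ran the libraries in 4 lanes of 9 samples each. Which sample ran in which lane is not given in the sources used here, so how samples were spread over lanes was not analysed.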

Additional observations from a re-analysis of the deposited data

Results flagged for a closer look

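In 3 of 99 sets of 4 samples (11 loci or sums in 9 muscles), 1 sample lay apart from the other 3 by Dixon's criterion, which chance alone meets in about 1 set in 20. XLOC_026971 was at 16.4 CPM (113 counts) in AD of animal 2, above the other 3 animals at 11.3 to 11.8 CPM. XLOC_026683 was at 12.2 CPM (46 counts) in ST of animal 1, below the others at 16.5 to 17.3 CPM. The annotated neighbour XLOC_026129 (ENSOARG00000020816) was at 34 CPM in LL of animal 2, below the others at 56.6 to 60.6 CPM.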

How the results depend on the processing

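The number of members called jointly across the 7 muscles was 0 under 11 of 12 alternatives and ranged from 0 to 1 with each animal left out. No member was called in any single muscle under any alternative. Between animals, 1 member was called, against 4 with all 36 samples, 2 with the likelihood ratio test, 2 with no filter, 4 at an FDR of 0.05 and 0 to 1 with each animal left out. The cause was not tested, except that an FDR of 0.05 is a looser threshold. Without the animal as a block, 147 loci were called jointly instead of 464, with 0 members in either fit. Counts over all loci ranged from 147 to 1471 in the joint test, 755 to 2481 between animals, 161 to 736 in ST, 5 to 231 in GB, 0 to 235 in GM, 12 to 220 in RF, 17 to 346 in LL, 0 to 197 in AD and 27 to 222 in PM. The difference of SS from the other muscles kept its sign in all 8 alternatives for every locus and stayed between 0.51 and 0.67 log2 CPM for the sum. The mean without SM was chosen after seeing the data. Depth limits XLOC_026970 and XLOC_026974 most, with 259 and 211 counts in 36 samples.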
